A study of Arabidopsis thaliana with 6 samples.

Results

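The nuclear-encoded proteins of the plastid ribosome were followed through 38 loci of Arabidopsis thaliana, of 32834 loci in the count table. The loci were listed by identifier, with no threshold on their values but with earlier results of these data known: 24 encode large-subunit proteins (PRPL), and 14 encode small-subunit proteins (PRPS) or plastid-specific ribosomal proteins (PSRP). Poly(A) RNA came from whole seedlings of the Col-0 accession at 7 days, on medium with 1% sucrose and 10 µM dexamethasone under days of 16 h light. The 3 groups, of 2 libraries each, were the transgenic sets named MIF_1 and MIF_3 and the wild type (WT). Both sets carried Myc-MIF, a Myc-tagged MIF, in pTA7002, a vector whose insert is switched on by dexamethasone through a hormone-activated factor under a constitutive viral promoter. All 3 groups, WT included, were on dexamethasone, and no library from plants with an empty vector, or from plants kept off the steroid, was used here. The meaning of the set numbers, whether a set is 1 transgenic line, whether replicates were separate cultures and the locus of MIF are not given in the labels. P-values therefore measure the spread between these samples, which may be technical, and the level of the transgene was not checked. The study asked which transcripts change with MIF expression and with the regulation of MORF2, a plastid RNA editing factor.

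Plastids translate their own small genome on ribosomes of the bacterial type, built from plastid rRNA, some plastid-encoded proteins and a larger number of proteins that the nucleus encodes and the cytosol makes. In the green seedling these ribosomes make core subunits of the photosystems, the ATP synthase and the large subunit of Rubisco, so demand for them is high while leaves expand. In Arabidopsis, loss of many of these nuclear genes stops the embryo, and partial loss gives pale plants. The PSRP genes encode subunits that ribosomes of Escherichia coli lack. PSRP5 and PSRP6 sit in the large subunit although they were listed with the small one.

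Total counts were 22403469 and 22827857 in MIF_1, 24175475 and 24698636 in MIF_3, and 21404582 and 18262579 in WT. All 38 loci passed the filter on low counts, which kept 20438 loci. WT replicate 2 stood apart from the other 5 libraries in RNA of organelles and ribosomes: plastid-encoded loci took 0.132% of its counts, against 0.0203% to 0.0273% elsewhere, and nuclear rRNA loci 1.04%, against 0.298% to 0.468%. All 39 antenna and photosystem genes were also above the filter. Levels are given as CPM, counts scaled to a common library size, with factors from edgeR's TMM method, and levels of different genes are set side by side only per kilobase of exon. A difference was called where edgeR's quasi-likelihood test gave a p below 0.05 after Benjamini-Hochberg adjustment over the whole table.

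Fold changes of plastid ribosomal protein mRNAs lay below WT almost throughout, but calls were made mainly in MIF_1. In MIF_1, 13 of the 38 fell and 0 rose. Over all genes tested, 9.85% fell, 7.82% rose and 17.7% were called in either direction. All 38 fold changes were below 0, as were 48.6% of those of all genes, with a median log2 of -0.31, which is 0.809 of the WT level, whereas the median of all genes was 0.01. In MIF_3, 1 of 38 fell, PRPS1, and 0 rose, where 7.47% of all genes fell, 5.84% rose and 13.3% were called in either direction. There, 37 of the 38 fold changes were below 0 (49% of all genes) with a median log2 of -0.16. The median standard error over the members was 0.10 on the log2 scale in each set. In whole seedlings, fewer plastid-rich cells and less of these mRNAs per cell cannot be told apart.

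**Figure D1:**
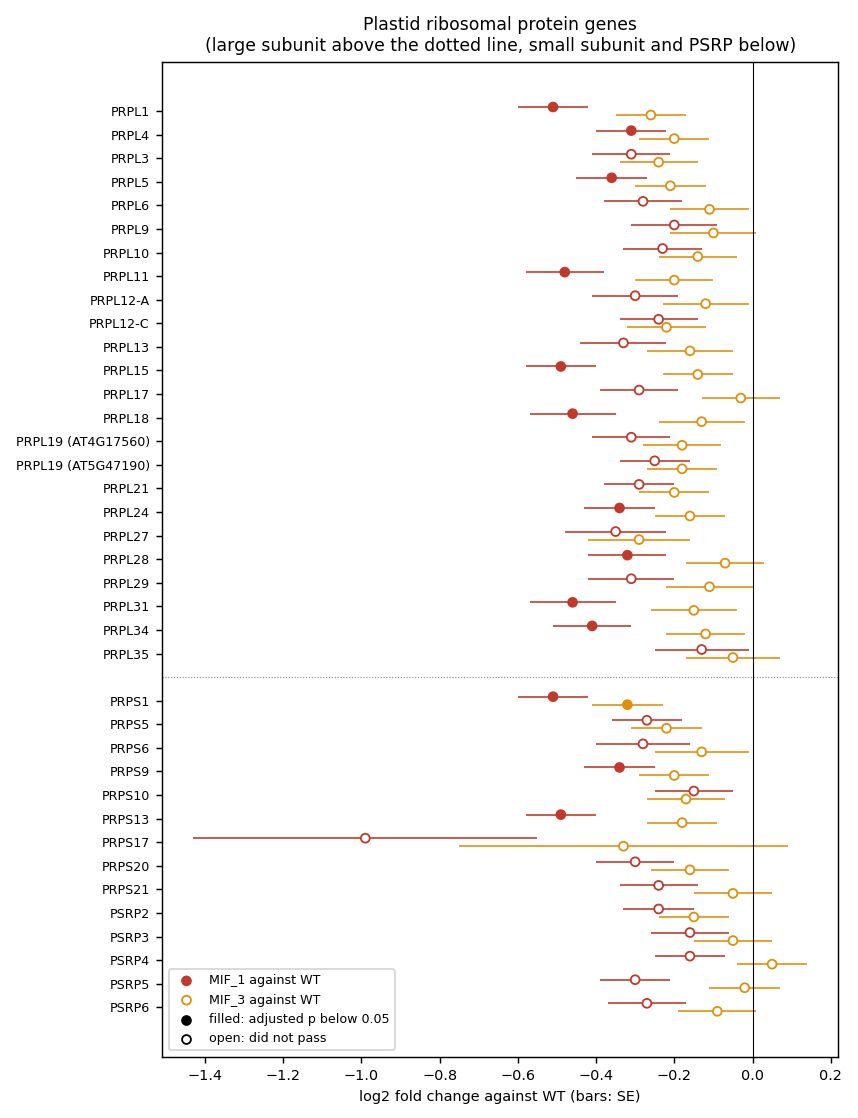
Log2 fold change against WT of each plastid ribosomal protein gene in MIF_1 (red) and MIF_3 (orange), with bars of 1 SE. Filled points had an adjusted p below 0.05. Every MIF_1 point lies below 0, and 13 are filled. In MIF_3, 1 point is filled, PRPS1, and PSRP4 lies above 0.

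Both MIF_1 libraries lay below both WT libraries for 37 of the 38 genes, a pattern that 28.9% of all genes showed. Both MIF_3 libraries lay below both WT libraries for 25, where 28.3% of all genes did. At an unadjusted p below 0.05 the members numbered 32 in MIF_1, or 84.2%, and 6 in MIF_3, or 15.8%, against 31.3% and 27.6% of all genes. DESeq2, run as a second test, called 19 members lower in MIF_1 and 1 in MIF_3, and 0 higher in either. Of all 20438 genes it called 2072 lower in MIF_1 and 1665 lower in MIF_3. In either direction it called 18% of all genes in MIF_1 and 14.3% in MIF_3. The MIF_1 count was lower on leaving out any 1 library of MIF_1 or WT, which leaves 1 library in that group. It was higher without MIF_3 replicate 1 or MIF_3 replicate 2, which belong to neither group of that comparison. The 1 fall in MIF_3 became 0 without any 1 library of MIF_1 or WT or without MIF_3 replicate 1, and 2 without MIF_3 replicate 2. The median log2 fold change in MIF_1 stayed between -0.37 and -0.23 in these fits. The share of all genes called in those fits is not given here, so these counts do not single out the members.

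Set against WT as the mean of both sets, 10 members fell and 0 rose, where 10.9% of all genes fell, 7.76% rose and 18.7% were called in either direction. DESeq2 called 16 members lower and 0 higher. Of all 20438 genes it called 2250 lower, and it called 19.1% in either direction. All 10 edgeR falls were among the 13 in MIF_1. The mean contrast had a median log2 of -0.24, with all 38 below 0 against 48.5% of all genes, and the 4 transgenic libraries lay below both WT libraries for 25 members, against 19.9% of all genes. Its count was lower without any 1 library of MIF_1 or WT or without MIF_3 replicate 1, and higher without MIF_3 replicate 2. The share of all genes called in those fits is not given here. The comparisons with WT share the same WT libraries and are not independent of each other.

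Summed over the 38 genes, the level was 11211 and 12314 CPM in MIF_1, 12609 and 13801 CPM in MIF_3, and 15161 and 14337 CPM in WT. The 3 groups did not overlap in this sum, and their order was MIF_1 lowest, then MIF_3, then WT. MIF_1 replicate 2 and MIF_3 replicate 1 lay closer to each other than the replicates of either set did. The order of the sums was not tested. The mean was 11763 ± 780 CPM in MIF_1 and 13205 ± 843 CPM in MIF_3, against 14749 ± 582 CPM in WT (SD, n = 2 each), which is 79.8% and 89.5% of WT. The genes also moved together between replicates of a group. Replicate 2 was above replicate 1 for 35 of 38 members in MIF_1, 37 in MIF_3 and 3 in WT, where over all genes it was above for 52.1%, 49.8% and 50.9%. The median ratio of replicate 2 to replicate 1 over the members was 1.1 in MIF_1, 1.09 in MIF_3 and 0.937 in WT. Counts of members are therefore not counts of independent measurements.

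**Figure D2:**
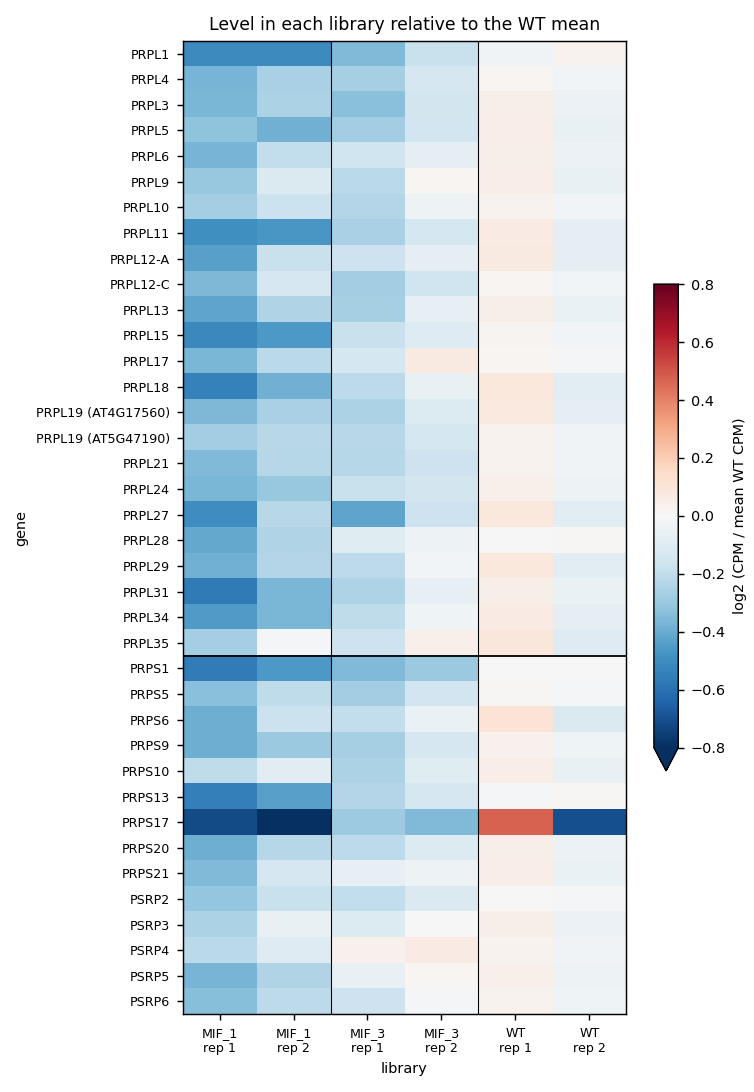
Log2 of each gene's CPM over its mean in WT, in each library (columns) for each gene (rows). Blue is below the WT mean and red above it, and the horizontal line parts large-subunit genes from small-subunit and PSRP genes. MIF_1 replicate 1 is the darkest blue, with a median of -0.37. MIF_1 replicate 2 (-0.23) and MIF_3 replicate 1 (-0.22) are close in shade, and MIF_3 replicate 2 (-0.10) is paler. Within each set replicate 2 is paler than replicate 1 for most genes.

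Both subunits were lower by similar shares. Large-subunit genes summed to 7906 ± 513 CPM in MIF_1 and 8915 ± 635 CPM in MIF_3, against 9988 ± 430 CPM in WT (SD, n = 2 each), or 79.2% and 89.3% of WT. Genes of the small subunit and PSRP genes summed to 3857 ± 266 CPM in MIF_1 and 4290 ± 208 CPM in MIF_3, against 4761 ± 152 CPM in WT, or 81% and 90.1% of WT. In MIF_1, 10 of the 24 large-subunit genes fell (41.7%) with a median log2 of -0.31, and 3 of the other 14 fell (21.4%) with a median of -0.27. The share of all genes that fell there was 9.85%. Medians in MIF_3 were -0.16 for both classes. The small-over-large ratio of summed CPM per kilobase was 0.473 and 0.475 in MIF_1, 0.479 and 0.463 in MIF_3, and 0.457 and 0.463 in WT. Both MIF_1 values lay above both WT values, and MIF_3 replicate 2 had the value of WT replicate 2. With PSRP5 and PSRP6 moved to the large subunit, the ratio averaged 0.346 ± 0.00155 in MIF_1 and 0.337 ± 0.00757 in MIF_3, against 0.336 ± 0.00307 in WT (SD, n = 2 each). The ratio is a description, and it was not tested.

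**Figure D3:**
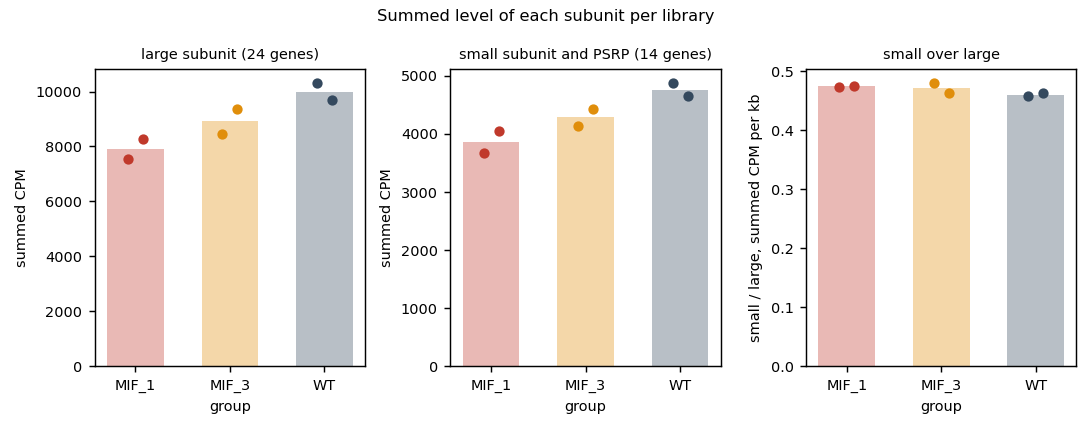
Summed CPM of large-subunit genes (left) and of small-subunit and PSRP genes (middle), and the ratio of small to large in summed CPM per kilobase (right). Bars are group means and points the 2 libraries of each group. Both sums are lowest in MIF_1 and highest in WT, while the ratio stays between 0.457 and 0.479.

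Among large-subunit genes, PRPL1 changed most in MIF_1. PRPL1 (AT3G63490, chr3:23444203-23446355 on the plus strand of TAIR10.1) encodes the counterpart of the bacterial protein of the stalk that guides spent tRNA out of the ribosome. It had 501 and 501 CPM in MIF_1, 557 and 629 CPM in MIF_3, and 698 and 726 CPM in WT. All 4 transgenic libraries lay below WT. The log2 fold change was -0.51 ± 0.09 in MIF_1 (SE, adjusted p = 0.00611) and -0.26 ± 0.09 in MIF_3 (adjusted p = 0.1), which did not pass. The call in MIF_1 ended without MIF_1 replicate 1 (adjusted p = 0.0597), MIF_1 replicate 2 (0.0634) or WT replicate 2 (0.0505).

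PRPL11 (AT1G32990), whose bacterial counterpart lies at the base of the other stalk where elongation factors bind, had 233 and 238 CPM in MIF_1, 274 and 298 CPM in MIF_3, and 344 and 311 CPM in WT. It was lowest in both MIF_1 libraries, and it fell by 0.48 on the log2 scale in MIF_1 (SE 0.10, adjusted p = 0.00909). The call ended without MIF_1 replicate 1 (0.0782), MIF_1 replicate 2 (0.0697) or WT replicate 1 (0.0836). The MIF_3 value was -0.20 (adjusted p = 0.226). PRPL10 (AT5G13510), its neighbour at the stalk base in bacteria, had 153 and 164 CPM in MIF_1, 157 and 180 CPM in MIF_3, and 189 and 182 CPM in WT. PRPL10 was below WT in each transgenic library without passing the test, at -0.23 in MIF_1 (adjusted p = 0.163). Of its exon bases, 69.2% overlap other annotated loci, so its reads may not be told apart from theirs. Per kilobase PRPL10 averaged 190 ± 9.14 CPM in MIF_1 and 202 ± 19.9 in MIF_3, against 222 ± 5.31 in WT (SD, n = 2 each), among the lowest of the large-subunit genes.

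The stalk itself is made of L12 copies, and the L12 loci among the members were PRPL12-A and PRPL12-C. PRPL12-A (AT3G27830) had 405 and 484 CPM in MIF_1, 488 and 519 CPM in MIF_3, and 575 and 519 CPM in WT. PRPL12-C (AT3G27850), close by on chromosome 3, had 367 and 429 CPM in MIF_1, 388 and 421 CPM in MIF_3, and 477 and 464 CPM in WT. MIF_1 lay below WT for both, at -0.30 (adjusted p = 0.0929) and -0.24 (adjusted p = 0.141), neither of which passed. Their coding sequences match at 93.4% of aligned bases and share an identical run of 255 bases, so the split of reads between them is uncertain.

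Genes for the proteins that seat 5S rRNA in the large subunit of bacteria, L5 and L18, both fell in MIF_1. PRPL5 (AT4G01310) had 399 and 382 CPM in MIF_1, 412 and 448 CPM in MIF_3, and 518 and 479 CPM in WT, a log2 fold change of -0.36 ± 0.09 in MIF_1 (adjusted p = 0.0295). PRPL18 (AT1G48350) had 211 and 235 CPM in MIF_1, 266 and 295 CPM in MIF_3, and 325 and 290 CPM in WT, or -0.46 ± 0.11 in MIF_1 (adjusted p = 0.0161). For PRPL18, MIF_3 replicate 2 lay inside the WT range, whereas MIF_1 was clear of it. The PRPL18 call ended without MIF_1 replicate 1 (0.132), MIF_1 replicate 2 (0.0597) or WT replicate 1 (0.122). The PRPL5 call ended with upper-quartile scaling (0.0555) and when any 1 of the MIF_1 libraries (0.113 and 0.174) or WT libraries (0.195 and 0.0759) was left out. Other loci overlap 24.1% of PRPL18 exon bases.

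PRPL15 (AT3G25920) encodes a late-assembling protein in bacteria, near the peptidyl transferase centre. It had 396 and 412 CPM in MIF_1, 500 and 527 CPM in MIF_3, and 575 and 558 CPM in WT. The groups did not overlap, and MIF_3 lay closer to WT than to MIF_1. PRPL15 fell by 0.49 on the log2 scale in MIF_1 (SE 0.09, adjusted p = 0.00543) and was at -0.14 in MIF_3 (adjusted p = 0.348). The call in MIF_1 ended without MIF_1 replicate 1 (0.0612). Set against MIF_1, PRPL15 in MIF_3 was 0.35 ± 0.09 higher on the log2 scale, which did not pass in edgeR (adjusted p = 0.0904) and passed in DESeq2 (adjusted p = 0.0179).

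PRPL4 and PRPL24 encode counterparts of bacterial proteins that bind rRNA early in assembly and line or flank the exit tunnel. PRPL4 (AT1G07320) had 426 and 462 CPM in MIF_1, 460 and 502 CPM in MIF_3, and 559 and 544 CPM in WT, and fell by 0.31 in MIF_1 (log2, adjusted p = 0.0474). PRPL24 (AT5G54600) had 343 and 358 CPM in MIF_1, 390 and 400 CPM in MIF_3, and 454 and 430 CPM in WT, and fell by 0.34 in MIF_1 (log2, adjusted p = 0.0293). Each transgenic library was below both WT libraries for both genes. The PRPL4 call was close to the threshold and ended with upper-quartile scaling (adjusted p = 0.0893), with a stricter filter (0.0521) and with a replicate block (0.0622). PRPL24 lost its call with upper-quartile scaling (0.0568), and the calls of both genes ended on leaving out any 1 of the MIF_1 or WT libraries, with adjusted p from 0.0903 to 0.243.

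The remaining falls of large-subunit genes in MIF_1 were among those for small proteins. PRPL28 (AT2G33450) had 138 and 155 CPM in MIF_1, 171 and 178 CPM in MIF_3, and 183 and 184 CPM in WT. PRPL31 (AT1G75350) had 226 and 259 CPM in MIF_1, 281 and 319 CPM in MIF_3, and 345 and 322 CPM in WT. PRPL34 (AT1G29070) had 228 and 242 CPM in MIF_1, 271 and 304 CPM in MIF_3, and 327 and 297 CPM in WT. MIF_1 was below WT and below MIF_3 for all 3 genes. Their log2 fold changes in MIF_1 were -0.32 (adjusted p = 0.0484), -0.46 (adjusted p = 0.0179) and -0.41 (adjusted p = 0.0231). The PRPL28 call ended with upper-quartile scaling (0.0794), with the block (0.0643) and on leaving out any 1 MIF_1 or WT library (0.0849 to 0.252), and other loci overlap 68% of its exon bases. PRPL34 and PRPL31 calls ended without either MIF_1 library or either WT library, with adjusted p from 0.0513 to 0.158.

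Of the large-subunit genes that did not pass in MIF_1, PRPL27 and PRPL29 stood highest per kilobase in WT. PRPL27 (AT5G40950), counterpart of a bacterial protein at the peptidyl transferase centre, had 370 and 447 CPM in MIF_1, 390 and 465 CPM in MIF_3, and 554 and 491 CPM in WT. Per kilobase it averaged 430 ± 57.2 CPM per kilobase in MIF_1 and 450 ± 55.5 in MIF_3, against 550 ± 46.8 in WT (SD, n = 2 each). PRPL29 (AT5G65220), at the mouth of the exit tunnel in bacteria, had 369 and 410 CPM in MIF_1, 416 and 474 CPM in MIF_3, and 510 and 453 CPM in WT. Per kilobase it averaged 467 ± 34.6 CPM per kilobase in MIF_1 and 534 ± 49.3 in MIF_3, against 578 ± 48 in WT. For both genes MIF_1 was below WT, but replicates were spread widely, and their log2 fold changes in MIF_1, -0.35 and -0.31, had adjusted p of 0.084 and 0.0836. PRPL35 (AT2G24090) was the closest to WT in MIF_1, at -0.13 (adjusted p = 0.515), with 254 and 305 CPM in MIF_1, 274 and 316 CPM in MIF_3, and 327 and 286 CPM in WT. PRPL35 was the one member whose MIF_1 libraries overlapped WT. PRPL3, PRPL6, PRPL9, PRPL13, PRPL17 and PRPL21 lay between -0.33 and -0.20 in MIF_1, with adjusted p from 0.0603 to 0.252. In bacteria L3 and L13 bind rRNA early in assembly, L6 lies near the site of elongation factors and L17 near the tunnel exit.

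PRPL19, a protein at the interface of the subunits in bacteria, is encoded by a pair of loci on different chromosomes. AT4G17560 had 171 and 183 CPM in MIF_1, 184 and 203 CPM in MIF_3, and 231 and 208 CPM in WT. AT5G47190 had 235 and 244 CPM in MIF_1, 244 and 259 CPM in MIF_3, and 290 and 280 CPM in WT. Both loci were lower in each transgenic library than in WT and neither passed, at -0.31 (adjusted p = 0.0631) and -0.25 (adjusted p = 0.0902) in MIF_1. Their coding sequences match at 82.6% of aligned bases with no identical run over 43 bases. Per kilobase, AT4G17560 averaged 144 ± 6.86 CPM in MIF_1, 158 ± 10.9 in MIF_3 and 179 ± 13.4 in WT, the lowest of the large-subunit genes.

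PRPS1 was the one member called in every comparison with WT. PRPS1 (AT5G30510, chr5:11619000-11621298 on the minus strand of TAIR10.1) encodes the counterpart of the bacterial protein that binds mRNA and brings it to the small subunit. It had 428 and 459 CPM in MIF_1, 493 and 513 CPM in MIF_3, and 631 and 629 CPM in WT. The 3 groups did not overlap and WT replicates were nearly equal. Per kilobase it averaged 279 ± 14 CPM in MIF_1 and 317 ± 9 in MIF_3, against 397 ± 0.563 in WT (SD, n = 2 each). In WT this was the highest level of the small-subunit and PSRP genes after PSRP5. PRPS1 fell by 0.51 in MIF_1 (log2, SE 0.09, adjusted p = 0.00469), by 0.32 in MIF_3 (SE 0.09, adjusted p = 0.0405) and by 0.42 in the mean contrast (SE 0.08, adjusted p = 0.0048). The difference of MIF_3 from MIF_1 was 0.18 ± 0.09 (adjusted p = 0.362). The MIF_3 call ended with upper-quartile scaling (0.0916), the block (0.0578), the fit of the groups compared alone (0.0785) and on leaving out MIF_3 replicate 1 (0.0887), either MIF_1 library (0.0734 and 0.0737) or either WT library (0.176 and 0.164). In MIF_1 the call ended without MIF_1 replicate 1 (0.0594), and in the mean contrast without WT replicate 1 (0.0523).

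PRPS13 and PRPS9 were the other falls among small-subunit genes in MIF_1. PRPS13 (AT5G14320), whose bacterial counterpart bridges the head of the small subunit to the large one, had 291 and 315 CPM in MIF_1, 361 and 388 CPM in MIF_3, and 422 and 428 CPM in WT. It fell by 0.49 in MIF_1 (log2, adjusted p = 0.00692), a call that ended without MIF_1 replicate 1 (0.075). PRPS9 (AT1G74970), whose bacterial counterpart reaches the P-site tRNA, had 266 and 283 CPM in MIF_1, 289 and 317 CPM in MIF_3, and 356 and 340 CPM in WT. It fell by 0.34 in MIF_1 (log2, adjusted p = 0.0352), and that call ended with upper-quartile scaling (0.0645), the block (0.0524) or without any 1 MIF_1 or WT library (0.104 to 0.187). Both genes were below WT in all 4 transgenic libraries. Other loci overlap 26.5% of PRPS13 exon bases and 21.6% of those of PRPS20. PRPS5, PRPS6, PRPS20 and PRPS21 lay between -0.30 and -0.24 in MIF_1, with adjusted p from 0.0618 to 0.146. In bacteria S5 takes part in accurate decoding and S20 binds rRNA early in assembly.

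PRPS10 was the one member with MIF_3 below MIF_1, a sign that turned when MIF_1 replicate 2 or MIF_3 replicate 1 was left out (0.04 and 0.05 on the log2 scale). PRPS10 (AT3G13120) had 316 and 342 CPM in MIF_1, 306 and 341 CPM in MIF_3, and 378 and 350 CPM in WT. The ranges of the sets overlapped, with MIF_3 against MIF_1 at -0.02 (adjusted p = 0.946). Per kilobase it averaged 213 ± 12.2 CPM in MIF_1 and 210 ± 16 in MIF_3, against 236 ± 12.7 in WT (SD, n = 2 each).

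PRPS17 was listed at almost no reads. PRPS17 (AT1G79850, chr1:30041243-30041952 on the minus strand of TAIR10.1) encodes a protein that binds rRNA early in assembly of the bacterial small subunit. It had 44 and 30 counts in MIF_1, 63 and 59 in MIF_3, and 84 and 31 in WT, which is 1.85 and 1.25 CPM in MIF_1, 2.49 and 2.38 CPM in MIF_3, and 4.21 and 1.87 CPM in WT. The ranges of all 3 groups were low and the WT range spanned both MIF_3 libraries, with WT replicates spread the most. The other 37 members stood at 179 CPM per kilobase or more in WT, against 4.28 for PRPS17. Its exon bases lie wholly within the exons of AT1G09927 and AT1G79840. Of 368 coding loci whose exons are wholly overlapped in this way, 349 (94.8%) had 0 counts in all 6 libraries, against 18.5% of 19821 coding loci with no overlap. The log2 fold change of PRPS17 in MIF_1 was -0.99 ± 0.44 (adjusted p = 0.157), and the part of the overlap in its low counts was not tested. Among factors of plastid translation, RABE1b (AT4G20360), the plastid elongation factor Tu, had 0 counts in every library. AT4G20362 overlaps 91.3% of its exon bases. Of 745 coding loci with 50% to under 100% of exon bases overlapped, 35.3% had 0 counts in all libraries. The part of the overlap in the counts of RABE1b was not tested.

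The 5 PSRP genes had a median log2 fold change of -0.24 in MIF_1 and -0.05 in MIF_3, beside -0.31 and -0.16 over all 38 members. The difference between these medians was not tested. By edgeR 0 of 5 passed in either set, where 17.7% of all genes did in MIF_1 and 13.3% in MIF_3. At an unadjusted p below 0.05 there were 3 (60%) in MIF_1 and 0 in MIF_3, against 31.3% and 27.6% of all genes. DESeq2 called 1 in MIF_1 and 0 in MIF_3, where it called 18% and 14.3% of all genes. PSRP5 (AT3G56910) had 311 and 340 CPM in MIF_1, 385 and 406 CPM in MIF_3, and 414 and 390 CPM in WT. Only MIF_1 was clear of WT for PSRP5, at -0.30 (adjusted p = 0.0523 in edgeR and 0.0274 in DESeq2), and MIF_3 was at -0.02. PSRP5 also had the highest level per kilobase of the 38 genes, 470 ± 30 CPM in MIF_1 and 571 ± 21.7 in MIF_3, against 580 ± 24.2 in WT (SD, n = 2 each), and other loci overlap 36.4% of its exon bases.

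PSRP4 (AT2G38140) was the one member above WT in MIF_3, joined with upper-quartile scaling by PRPL17 and PSRP5, each at 0.02 on the log2 scale. PSRP4 had 167 and 181 CPM in MIF_1, 199 and 203 CPM in MIF_3, and 198 and 190 CPM in WT. MIF_1 lay below WT and MIF_3 just above it, at -0.16 (adjusted p = 0.287) and 0.05 (adjusted p = 0.789), and the difference between the sets was 0.21 ± 0.09 (adjusted p = 0.317). PSRP2 (AT3G52150), a protein with RNA-recognition motifs, had 268 and 294 CPM in MIF_1, 290 and 306 CPM in MIF_3, and 333 and 330 CPM in WT. PSRP3 (AT1G68590), on the small subunit, had 193 and 221 CPM in MIF_1, 213 and 230 CPM in MIF_3, and 238 and 223 CPM in WT. PSRP6 (AT5G17870), on the large subunit, had 201 and 221 CPM in MIF_1, 227 and 253 CPM in MIF_3, and 260 and 249 CPM in WT. MIF_1 was below WT for these 3 genes without passing, with log2 fold changes of -0.24 (adjusted p = 0.111), -0.16 (0.345) and -0.27 (0.0948).

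Between the sets, 0 members passed, and most fold changes lay on the side of MIF_3. Of the 38 log2 fold changes of MIF_3 against MIF_1, 37 were above 0 (48.5% of all genes were below it), with a median of 0.17 and the highest, apart from PRPS17, at 0.35 in PRPL15. Both MIF_3 libraries lay above both MIF_1 libraries for 23 members, where 23.5% of all genes showed that order. By edgeR 10 members (26.3%) were at an unadjusted p below 0.05, as were 16% of all genes. Few genes of any kind passed, with 0.475% rising, 1.29% falling and 1.76% in either direction. DESeq2 called 1 member, PRPL15, and 3.79% of all genes. The smallest edgeR values after PRPL15 belonged to PRPS13, at 0.31 ± 0.09 (adjusted p = 0.146), and PRPL18, at 0.33 ± 0.11 (adjusted p = 0.167).

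Reference names mark 9 of the members as embryo-defective, after the phenotype of mutants. They are PRPL1, PRPL4, PRPL6, PRPL10, PRPL13, PRPL18, PRPL31, PRPS5 and PRPS13. Of these, 5 fell in MIF_1 (55.6%) with a median log2 of -0.33, and of the other 29 members 8 fell (27.6%) with a median of -0.30. Over all genes tested, 9.85% fell in MIF_1. The 9 genes summed to 77.2% of WT in MIF_1 and 88.1% in MIF_3, and the 29 to 80.7% and 90.1%. Both groups of genes were lower by similar amounts.

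Genes that work with the plastid ribosome did not all follow its proteins. Of 14 factors of plastid translation 13 were tested, and 3 fell in MIF_1 (23.1%, against 9.85% of all genes) with a median log2 of -0.20. In MIF_3 0 factors passed in edgeR, with 6 (46.2%) at an unadjusted p below 0.05, against 27.6% of all genes, and 2 falls in DESeq2, and the median was -0.15. In the mean contrast 5 factors fell (38.5%, against 10.9% of all genes). SCO1 (AT1G62750), plastid elongation factor G, fell by 0.27 on the log2 scale (adjusted p = 0.0333), and FUG1 (AT1G17220), an initiation factor of the IF2 type, fell by 0.29 (adjusted p = 0.0312). AT5G24490, annotated as a 30S ribosomal protein, fell by 0.43 (adjusted p = 0.0303), and AT5G08650, of the LepA type, by 0.29 (adjusted p = 0.0239). The fifth was emb2726 (AT4G29060), for elongation factor Ts.

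Of 16 genes for assembly of plastid ribosomes and processing of plastid rRNA, 2 (12.5%) rose and 0 fell in MIF_1, where 7.82% of all genes rose, with a median log2 of 0.06. In MIF_3 0 passed in edgeR, with 4 at an unadjusted p below 0.05 (25%, against 27.6% of all genes) and 1 rise in DESeq2. NOA1 (AT3G47450), a GTPase needed for plastid ribosomes, had 77.4 and 68 CPM in MIF_1, 62.3 and 64.7 CPM in MIF_3, and 50.7 and 47.5 CPM in WT. It rose by 0.57 on the log2 scale in MIF_1 (adjusted p = 0.00675) and was at 0.37 in MIF_3 (adjusted p = 0.0505). The nuclease gene emb2746 (AT5G63420) rose by 0.40 in MIF_1 (adjusted p = 0.0275). RH39 (AT4G09730), a helicase that acts on 23S rRNA, had 73.8 and 69.3 CPM in MIF_3, against 104 and 95.9 CPM in MIF_1, a log2 difference of -0.48 (adjusted p = 0.0445). In MIF_1, where all 38 plastid ribosomal protein genes were below 0, 11 of the 16 assembly genes were above 0 (68.8%, against 51.4% of all genes). In MIF_3 14 of the 16 were below 0, as were 37 of the 38, with medians of -0.13 and -0.16.

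Other gene lists moved by other amounts. The 39 antenna and photosystem genes encode proteins that the plastid imports and builds into complexes with its own translation products. They were taken by symbol, and no LHCB1 antenna gene was among them. In MIF_1 38 fell (97.4%, against 9.85% of all genes) and in MIF_3 24 (61.5%, against 7.47%), with medians of -1.02 and -0.53. Genes whose reference product names a protein family of eukaryote-type ribosomes had a median log2 of 0.16 in MIF_1. Of 77 tested, 10 rose (13%, against 7.82% of all genes) and 1 fell (1.3%, against 9.85%), and 69 were above 0 (89.6%, against 51.4%). In MIF_3 1 rose and 1 fell (1.3% each, against 5.84% and 7.47% of all genes), with a median of -0.01. That list was drawn up after the data had been seen. Of 17 genes with products named as 40S or 60S proteins 0 passed in either set by edgeR or DESeq2. Their medians were -0.01 in MIF_1 and -0.06 in MIF_3, with 2 (11.8%) at an unadjusted p below 0.05 in each. Of 7 mitochondrial ribosomal protein genes 0 passed by either tool, with 1 (14.3%) at an unadjusted p below 0.05 in each set. Their medians were 0.34 in MIF_1 and 0.09 in MIF_3. Over all genes, 31.3% in MIF_1 and 27.6% in MIF_3 were at an unadjusted p below 0.05. By edgeR 17.7% and 13.3% of all genes were called, and by DESeq2 18% and 14.3%. The difference between lists was not tested.

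**Figure D4:**
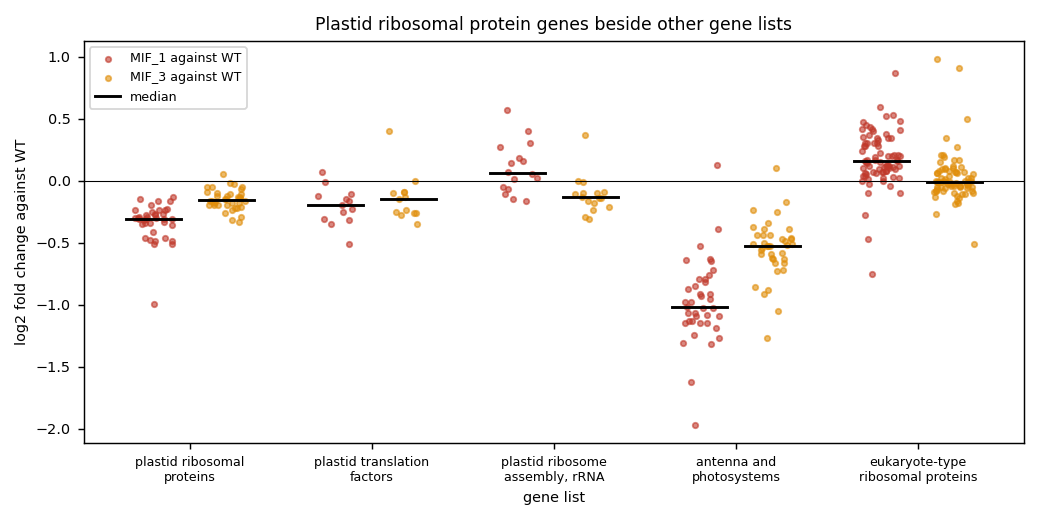
Log2 fold change against WT of each gene tested in 5 lists, in MIF_1 (red) and MIF_3 (orange), with a bar at each median. Plastid ribosomal proteins sit around -0.31 and -0.16, antenna and photosystem genes around -1.02 and -0.53, and eukaryote-type ribosomal proteins around 0.16 and -0.01.

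The 250 bases upstream of each annotated gene start were searched for short motifs on both strands. These were the telo-box AAACCCTA, the site II elements TGGGCC and TGGGCT, the I-box GATAAG, the G-box CACGTG and CCAATC. Telo-boxes and site II elements are known from promoters of genes for ribosomal proteins and other housekeeping functions in plants. Either site II element was in 14 of 38 windows (36.8%), against 21.9% of 20062 tested protein-coding genes. It was in 6 of 24 large-subunit windows and in 8 of 14 of the others. TGGGCC was in 31.6% of members and 16.2% of all genes, TGGGCT in 18.4% and 13.9%, the telo-box in 10.5% and 3.51%, the I-box in 23.7% and 12.2%, the G-box in 7.89% and 7.36%, and CCAATC in 10.5% and 10.5%. The windows with either site II element were 5 of the 13 genes that fell in MIF_1 (38.5%) and 9 of the 25 that did not pass (36%). Many windows run into another annotated gene. Among those with a telo-box this holds for PRPL1, PRPL4 and PSRP4, and not for PRPS5. Overlapping matches were each counted, and a match describes letters, not bound factors.

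Windows of 4 members are printed from RefSeq TAIR10.1, 5′ to 3′ on the strand of the gene, with telo-box and site II letters in capitals. They show PRPL19 (AT4G17560), with 5 site II copies, PRPS5, which has both kinds of motif, PRPS9, which fell and has 3 site II copies, and PRPS1, which fell in both sets and has none. The windows are chr4:9779974-9780223 on the plus strand for PRPL19 (AT4G17560), and on the minus strand chr2:14302497-14302746 for PRPS5, chr1:28159318-28159567 for PRPS9 and chr5:11621299-11621548 for PRPS1.
PRPL19 (AT4G17560): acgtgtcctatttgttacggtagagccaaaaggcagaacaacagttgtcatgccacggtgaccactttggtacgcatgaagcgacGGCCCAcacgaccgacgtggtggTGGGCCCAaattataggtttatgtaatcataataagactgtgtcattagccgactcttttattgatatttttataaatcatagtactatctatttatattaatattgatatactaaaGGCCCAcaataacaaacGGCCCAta
PRPS5: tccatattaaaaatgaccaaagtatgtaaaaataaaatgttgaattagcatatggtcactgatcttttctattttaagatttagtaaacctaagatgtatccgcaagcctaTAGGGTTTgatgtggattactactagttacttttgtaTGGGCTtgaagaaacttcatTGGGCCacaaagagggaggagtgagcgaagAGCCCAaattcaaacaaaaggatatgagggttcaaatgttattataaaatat
PRPS9: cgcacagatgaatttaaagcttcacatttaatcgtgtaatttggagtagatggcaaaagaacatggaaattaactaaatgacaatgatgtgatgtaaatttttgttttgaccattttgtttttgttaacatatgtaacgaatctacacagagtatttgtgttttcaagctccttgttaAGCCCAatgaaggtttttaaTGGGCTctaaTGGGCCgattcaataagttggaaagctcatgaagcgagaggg
PRPS1: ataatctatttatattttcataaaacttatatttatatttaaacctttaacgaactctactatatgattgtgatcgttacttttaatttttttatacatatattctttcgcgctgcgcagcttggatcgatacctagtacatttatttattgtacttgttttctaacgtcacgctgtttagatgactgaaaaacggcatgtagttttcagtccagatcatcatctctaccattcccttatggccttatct

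**Figure D5:**
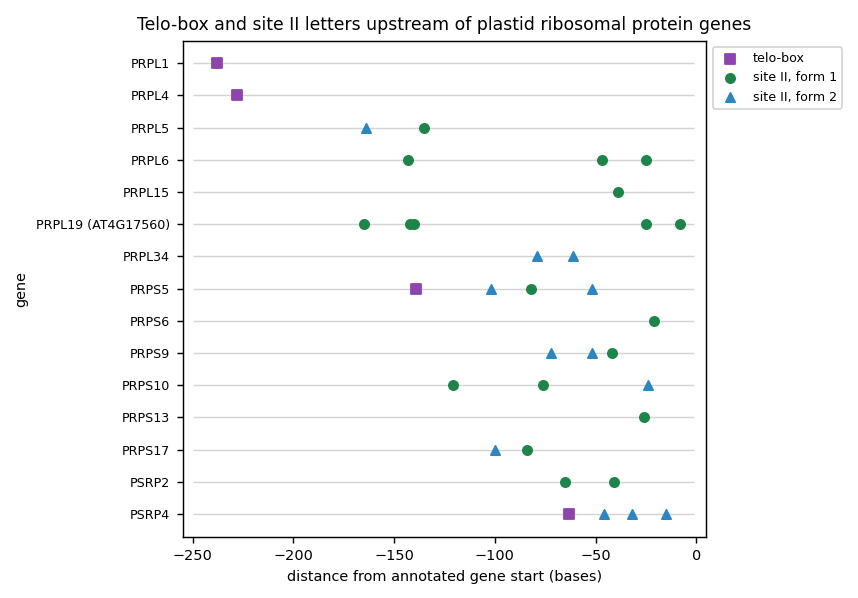
Position of telo-box (squares) and site II letters (circles for TGGGCC, form 1, and triangles for TGGGCT, form 2) in the 250 bases before the annotated gene start, for 15 members that hold any of them. The x axis is the distance from the gene start in bases. PRPL19 (AT4G17560) holds 5 copies of form 1.

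In PRPL19 (AT4G17560) the 5 copies of TGGGCC begin 165, 142, 140, 25 and 8 bases before the gene start, and the copies at 142 and 140 overlap on opposite strands. Of these, 2 lie close to the start. PRPS5 holds 1 telo-box 139 bases before the start and site II letters at 102, 82 and 52 bases. PRPS9 holds site II letters at 72, 52 and 42 bases. PRPS5 was at -0.27 and PRPS9 at -0.34 in MIF_1 (log2 fold change, adjusted p = 0.0824 and 0.0352), and PRPS1, with no such letters in its window, was at -0.51.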

How the data were processed

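Whole seedlings gave poly(A) libraries for Illumina sequencing, per the labels' protocols. The authors deposited whole-number read counts per locus without normalization. Per the submitters' processing notes, fastp, STAR, HTSeq and TAIR10 were used. Software versions, the strand setting, the annotation release and the handling of reads with several matches were not given in the sources used here. Groups came from the sample titles.

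The main test was edgeR 4.0.16 (R 4.3.3, limma 3.58.1), with filterByExpr (minimum count 10, minimum total 15), TMM scaling and the quasi-likelihood F test of a model with 1 coefficient per group over all 6 libraries (3 residual degrees of freedom, prior 6.69, common dispersion 0.0174). Contrasts were MIF_1, MIF_3 and their mean against WT, and MIF_3 against MIF_1. SE was taken from the F statistic, as the size of the log2 fold change divided by its root, and is approximate. CPM used TMM-scaled library sizes, and length is the union of exons. Replicates differed by more than sampling noise (chi-square per degree of freedom 9.32 in MIF_1, 25.1 in MIF_3 and 11.6 in WT). With 2 libraries in a group, SDs are imprecise.

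Names, exons and upstream windows came from RefSeq TAIR10.1, matched by locus identifier for all 38 members. The upstream window of 1 member is counted in the motif shares and is otherwise not reported here. Lists of translation factors and assembly genes were written by locus, and the other lists were taken by reference symbol or product. PSAT and PSAT1, which the symbol rule for photosystem genes also took and which encode other enzymes, were left out after the data were seen. Values were given in each library for members called in any contrast, proteins with a pair of listed loci and PSRP genes. They were also given for the 2 highest and 2 lowest levels per kilobase of each class in WT. Members and lists were chosen with earlier results of these data known.

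Alternatives were RLE and upper-quartile factors, DESeq2 1.42.0, no filter (23885 genes), a stricter filter (1 CPM in 2 libraries and a mean count of 50, 17301 genes), organelle-encoded and rRNA loci removed, a replicate block, the groups compared alone, a threshold of 0.01, each library left out, and other subunit assignments.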

Additional observations from a re-analysis of the deposited data

How the results depend on the processing

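All 38 members' fold changes in MIF_1 kept their sign in every alternative run, while counts of calls depended on the setting. In MIF_1 the 13 falls became 8 with upper-quartile factors (6 large, against 10), 24 with the groups compared alone (18 large, 6 of the others), 5 at a threshold of 0.01 (3 large), 19 with DESeq2 (5 of the others, against 3) and 10 with the replicate block. The 1 fall in MIF_3 became 0 with upper-quartile factors, the replicate block, the groups compared alone and the 0.01 threshold. In the mean contrast the 10 falls (7 large) became 5 with upper-quartile factors (3 large), 5 with the replicate block (3 large), 16 with DESeq2 (12 large) and 2 at the 0.01 threshold (1 large, 1 of the others), and large-subunit falls became 4 with the stricter filter. DESeq2 made 1 rise in MIF_3 against MIF_1, of the large subunit. Fitting the groups alone could not be run for the mean contrast.

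On leaving out 1 library, falls ranged from 0 to 24 in MIF_1 (large 0 to 18, others 0 to 6), 0 to 2 in MIF_3 (0 to 1 in each class) and 0 to 17 in the mean contrast (large 0 to 13, others 0 to 4). Medians ranged from -0.37 to -0.23 in MIF_1 (large -0.37 to -0.24, others -0.36 to -0.20), from -0.22 to -0.10 in MIF_3 (large -0.22 to -0.09, others -0.20 to -0.08), from -0.28 to -0.18 in the mean contrast (large -0.29 to -0.20, others -0.24 to -0.13) and from 0.08 to 0.24 in MIF_3 against MIF_1 (large 0.08 to 0.23, others 0.09 to 0.24). Where a group keeps 1 library, it is assumed to vary like the others. Shares of all genes called in these fits are not given here, so the ranges of falls do not single out the members.

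The ratio of small to large averaged 0.439 in MIF_1 and 0.430 in MIF_3, against 0.424 in WT, without the most abundant member of each class, and 0.346, 0.337 and 0.336 with PSRP5 and PSRP6 moved. In CPM without length it averaged 0.488 in MIF_1 and 0.482 in MIF_3, against 0.477 in WT.

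Members whose sign turned were all far from the threshold. In MIF_3 upper-quartile factors put PRPL17 and PSRP5 at 0.02. Without 1 library the MIF_3 value ranged from -0.21 to 0.01 for PRPL9, -0.14 to 0.07 for PRPL17, -0.16 to 0.05 for PRPL35, -0.79 to 0.39 for PRPS17, -0.11 to 0.01 for PRPS21, -0.11 to 0.00 for PSRP3 and -0.07 to 0.03 for PSRP5. The mean contrast ranged from -0.19 to 0.01 for PRPL35 and -1.12 to 0.06 for PRPS17, and MIF_3 against MIF_1 from -0.10 to 0.05 for PRPS10. The cause was not tested.

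Whether replicate numbers pair the libraries was not settled. Over all genes tested, deviations of same-numbered replicates correlated at -0.07 between MIF_1 and WT, -0.0691 between MIF_3 and WT and 0.0779 between MIF_3 and MIF_1. Such values over all genes cannot exclude pairing. Among the 38 members, replicate 2 was above replicate 1 for 35 in MIF_1, 37 in MIF_3 and 3 in WT. Scaling moved the median gene by at most 0.05. With 2 libraries in a group, differences near 0.2 on the log2 scale were seldom resolved.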
